A study of Arabidopsis thaliana with 24 samples.

Results

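SHR23 and PEP45 are Arabidopsis thaliana lines whose GFP localization is labelled V-EN in SHR23 and C-EN-V in PEP45, and both were sampled without iron. Their root transcriptomes were set against each other over the genes with an RPKM (reads scaled by gene length and library size) of at least 1 in either line, which were 18866 of the 33602 genes in the table. The lines account for 6 of the 24 samples of the series, 3 each, and the table holds 1 mean per group, so neither a spread nor a test of SHR23 against PEP45 could be computed. The study title speaks of mislocalized POPEYE (PYE). The sources used here do not spell out the localization codes and give neither the promoter nor the genetic background of either line, and each line stands as 1 genotype name. Besides the deficient SHR23 and PEP45 roots, values are given for pye-1 (a PYE mutant, written PYE in the sample records). They are also given for the lines WER13, WER65 and PPL and for wild type without iron. All of these were on the same deficient regime, and values for wild type kept on iron are given too. Every seedling was 7 days old, having spent 4 days on iron and then 3 days on fresh medium. Deficient medium lacked the 0.1 mM FeEDTA and held 300 µM ferrozine, which binds ferrous iron. All tissue was root cut off with a razor. Nothing in the labels says whether the 3 samples of a group came from separate cultures.

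PYE encodes a basic helix-loop-helix (bHLH) transcription factor that is induced in iron-deficient roots, where it holds down genes that store or move iron. Iron uptake in Arabidopsis is led by the bHLH protein FIT with its subgroup Ib bHLH partners, which switch on the root iron reductase FRO2, the iron transporter IRT1 and the synthesis of secreted coumarins that help to bring iron into solution. When iron is plentiful it is placed in ferritins and in vacuoles, and transport into vacuoles involves the vacuolar-iron-transporter-like (VTL) family. BHLH11 is another bHLH protein, described as a negative regulator of the uptake genes.

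Lower VTL5 and VTL1 in SHR23 than in PEP45, with VTL2 level between the lines, was the clearest contrast among the iron genes, so the promoters of those 3 genes are shown, 250 bases before to 50 bases after the annotated start, from the RefSeq annotation of TAIR10.1, all on the plus strand. VTL5 (AT3G25190) is read from chr3:9174148-9174447, VTL1 (AT1G21140) from chr1:7404078-7404377 and VTL2 (AT1G76800) from chr1:28828993-28829292. Capitals mark the letters GGCGTGNGTTC, a stretch picked out after these 3 sequences had been read and then searched on both strands.
VTL5: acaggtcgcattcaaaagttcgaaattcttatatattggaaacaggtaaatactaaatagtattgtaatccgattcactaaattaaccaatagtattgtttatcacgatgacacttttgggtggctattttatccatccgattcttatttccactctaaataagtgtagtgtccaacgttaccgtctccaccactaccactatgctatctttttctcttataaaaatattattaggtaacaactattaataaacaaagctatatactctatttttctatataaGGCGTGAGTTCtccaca
VTL1: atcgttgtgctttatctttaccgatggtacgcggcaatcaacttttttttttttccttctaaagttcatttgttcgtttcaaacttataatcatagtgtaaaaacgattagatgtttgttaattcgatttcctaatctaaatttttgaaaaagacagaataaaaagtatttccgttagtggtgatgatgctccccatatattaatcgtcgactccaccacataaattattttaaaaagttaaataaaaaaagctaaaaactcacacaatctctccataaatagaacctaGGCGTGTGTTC
VTL2: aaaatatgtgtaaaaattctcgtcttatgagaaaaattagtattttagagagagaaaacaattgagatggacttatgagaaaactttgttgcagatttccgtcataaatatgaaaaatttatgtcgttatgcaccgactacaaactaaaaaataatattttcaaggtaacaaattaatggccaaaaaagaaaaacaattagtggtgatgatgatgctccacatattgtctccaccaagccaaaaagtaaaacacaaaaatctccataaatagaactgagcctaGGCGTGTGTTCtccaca
The stretch began 33 bases downstream of the start in VTL5 and VTL2 and 39 bases downstream in VTL1. Because it was picked from these 3 windows, its presence in all 3 was fixed by that choice and is not a result. The stretch was held by 20 of 27443 promoters of protein-coding genes (0.0729%) and by 15 of the 18302 tested genes with a promoter. Among the 15 was also VTL4 (AT3G43660), of the same gene family. No G-box (CACGTG) lay in the 3 windows.

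BHLH11 (AT4G36060, chr4:17054976-17055275, plus strand) and the clock gene FKF1 (AT1G68050, chr1:25508389-25508688, plus strand) also had lower values in SHR23 and are shown for the other motifs searched. Capitals mark the G-box in BHLH11 and the evening element (AAAATATCT), which stands on the reverse strand in both places, in FKF1.
BHLH11: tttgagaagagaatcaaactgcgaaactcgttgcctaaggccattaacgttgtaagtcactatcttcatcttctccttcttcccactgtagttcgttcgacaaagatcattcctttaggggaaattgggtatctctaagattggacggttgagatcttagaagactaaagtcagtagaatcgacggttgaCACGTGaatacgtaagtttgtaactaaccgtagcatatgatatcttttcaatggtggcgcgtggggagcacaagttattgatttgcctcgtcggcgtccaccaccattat
FKF1: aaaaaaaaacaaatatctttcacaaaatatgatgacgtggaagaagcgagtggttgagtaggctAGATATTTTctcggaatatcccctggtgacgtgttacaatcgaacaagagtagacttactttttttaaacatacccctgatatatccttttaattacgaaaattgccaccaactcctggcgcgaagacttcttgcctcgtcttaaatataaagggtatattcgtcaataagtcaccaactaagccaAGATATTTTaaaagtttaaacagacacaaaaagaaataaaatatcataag
The G-box stood in 36 of 205 promoters of genes at least 2-fold higher in SHR23, in 35 of 240 promoters of genes at least 2-fold lower (14.6%) and in 8.73% of the promoters of all tested genes. The evening element stood in 4 of the 205 (1.95%), in 20 of the 240 (8.33%) and in 2.97% of all tested promoters. These shares are descriptions, without a test, and a match of letters is not a bound site.

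The lines had similar values for most genes. Of the 18866 genes, 17325 (91.8%) lay within 1.5-fold, on differences of log2(RPKM + 0.5), and the median difference was -0.0040. Positive differences, meaning higher in SHR23 by any amount, were held by 9290 genes (49.2%). At least 2-fold differences were found for 533 genes (2.83%), of which 232 (1.23%) were higher and 301 (1.60%) lower in SHR23 than in PEP45. These shares are the background for the counts given below for each gene list, where members near 0 also count as positive or negative. PPL against deficient wild type gave 120 genes past the same fold (0.636% of 18870), 10 higher (0.0530%) and 110 lower (0.583%). Low values of single-exon genes fall on steps left by single reads. The 3 most frequent steps were taken in each line, a number fixed beforehand to match its 3 samples. Read as libraries, they correspond to 16716100, 17115400 and 17662800 effective reads in SHR23 and to 15639400, 19289800 and 22881300 in PEP45. These depths are estimates, and the number of libraries was not tested. The filter admitted AT5G46270 with an RPKM of 1.00 in SHR23 and 0.895 in PEP45, and left out AT2G40740 with 0.400 in SHR23 and 0.999 in PEP45. In roots as a whole, fewer cells of a type and less RNA per cell cannot be told apart.

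**Figure D1:**
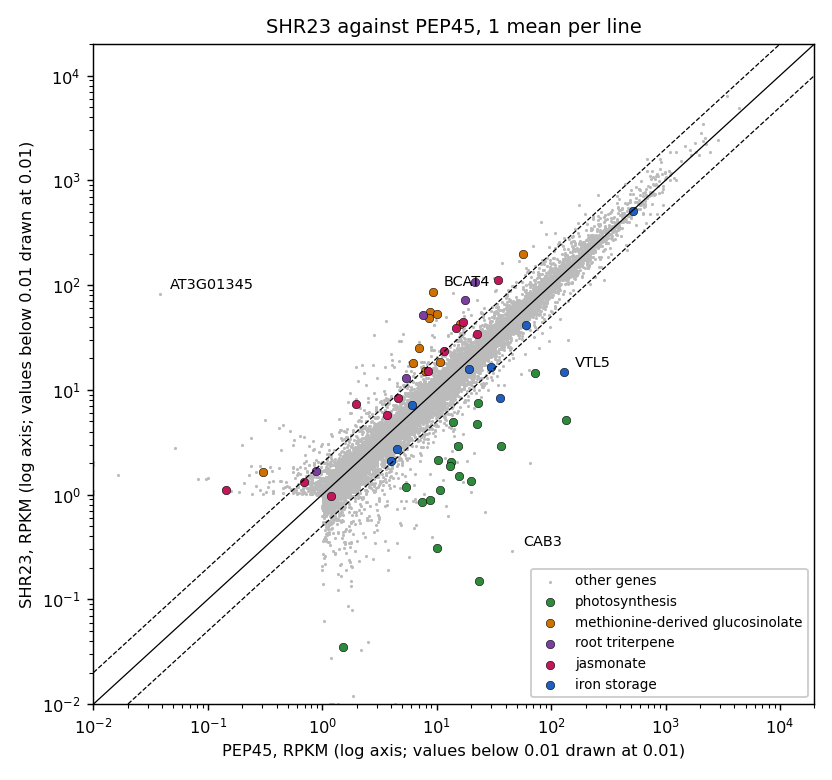
RPKM of each gene in SHR23 (vertical, log axis) against PEP45 (horizontal, log axis), 1 mean per line, with members of 5 gene lists in colour. The solid line marks equal values and the dashed lines a 2-fold difference. Photosynthesis genes lie below the lower dashed line, most glucosinolate and triterpene genes above the upper one, and AT3G01345 stands alone at 81.8 RPKM in SHR23 and 0.0378 in PEP45.

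The authors' deposited tables compare each line with deficient wild type and share those control samples, so they are placed side by side. V-EN (SHR23) was listed as higher for 1485 of the 18866 genes (7.87%) and lower for 1809 (9.59%) in the authors' deposited table, and C-EN-V (PEP45) as higher for 1654 (8.77%) and lower for 1661 (8.80%). Among the 232 genes at least 2-fold higher in SHR23 than in PEP45, the authors' deposited tables list 98 as higher in SHR23 and 118 as lower in PEP45, with 43 in neither table. Among the 301 genes lower in SHR23, the authors' deposited tables list 95 as lower in SHR23 and 48 as higher in PEP45, with 162 in neither table.

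PYE itself stood at 45.8 RPKM in SHR23, against 28.9 in PEP45, 20.6 in pye-1, 45.1 in deficient wild type and 11 in wild type on iron. Its value in SHR23 was thus close to deficient wild type, and that in PEP45 lay between deficient wild type and pye-1. PYE stood at 25.3 RPKM in PPL, 30.3 in WER13 and 27.5 in WER65, so PEP45 lay near these lines and SHR23 above them. None of these values separates transcripts of the endogenous gene from those of a transgene. The authors' deposited tables list PYE as lower than deficient wild type in PEP45 (q = 0.00111) and do not list it in SHR23. SHR, SCR, WER and AT1G09750, genes whose promoters mark root tissues, differed by less than 1.5-fold: SHR, a mobile regulator made in the stele, stood at 12.1 RPKM in SHR23 and 13.2 in PEP45, and SCR, its partner in the endodermis, at 16.7 and 13.5. WER, which specifies non-hair epidermis, stood at 7.6 RPKM in SHR23 and 7.67 in PEP45, and was listed in the authors' deposited table as higher than deficient wild type in SHR23 (q = 0.0392). The cortex markers AT1G09750 and AT1G62500 were near 0 in both lines, at 0.489 and 0.106 RPKM in SHR23 and 0.492 and 0.189 in PEP45, and also in pye-1 (0.502 and 0.0908) and deficient wild type (0.633 and 0.531). All 6 tested genes of the ground tissue list lay between -0.20 and 0.30 on the log2 scale, with a median of -0.02.

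Iron storage genes were lower in SHR23. Of the 11 listed genes 9 were tested, 2 were at least 2-fold lower, none was 2-fold higher and 8 had negative differences, with a median of -0.65 on the log2 scale. The 8 include VTL2, which was level at -0.02. Over all tested genes 1.60% were at least 2-fold lower. VTL5, of the family of vacuolar-iron-transporter-like proteins, stood at 14.7 RPKM in SHR23, against 129 in PEP45, 121 in pye-1, 8.67 in deficient wild type and 96.4 on iron. The PEP45 value was 8.78-fold the SHR23 value and close to pye-1, and WER13 and WER65 stood at 139 and 160 RPKM. VTL1 stood at 8.38 RPKM in SHR23, against 35.9 in PEP45, 39.6 in pye-1, 0.180 in deficient wild type and 6.43 on iron. VTL2, whose sequence is close to VTL1 so that reads may be shared between them, stood at 511 RPKM in SHR23, against 519 in PEP45, 404 in pye-1 and 5.96 in deficient wild type. VTL1 and VTL5 therefore differed between the lines while VTL2 was at the pye-1 level or above it in both. NEET (AT5G51720), an iron-sulfur cluster protein, stood at 16.7 RPKM in SHR23 and 29.9 in PEP45, and the ferritin FER2 at 2.1 and 4.01. FER1, the main ferritin of vegetative tissue, stood at 41.3 RPKM in SHR23, against 59.9 in PEP45 and 3.34 in deficient wild type. All 9 tested genes were listed as higher than deficient wild type in both lines in the authors' deposited tables, with q = 0.0256 for VTL5 in SHR23 and 8.69e-08 in PEP45.

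Iron uptake genes were higher in SHR23. All 17 were tested, 17 had positive differences and 2 were at least 2-fold higher, with a median of 0.68 on the log2 scale. Over all tested genes 49.2% were positive and 1.23% at least 2-fold higher. S8H (AT3G12900), the scopoletin 8-hydroxylase of coumarin synthesis, stood at 730.2 RPKM in SHR23, against 256 in PEP45, 107 in pye-1 and 1492 in deficient wild type. IRT2, a transporter related to IRT1, stood at 87.7 RPKM in SHR23, against 43.4 in PEP45, 26.2 in pye-1 and 135 in deficient wild type. ZIP8 followed with 31.8 RPKM in SHR23 and 15.7 in PEP45, and MYB10, a regulator of root iron responses, with 286 and 151. For S8H, IRT2 and ZIP8 the order was deficient wild type, SHR23, PEP45 and pye-1, from high to low. IRT1 had the same order, at 3430 RPKM in SHR23, against 2141 in PEP45, 1194 in pye-1 and 3853 in deficient wild type. FRO2 stood at 1238 RPKM in SHR23, against 682 in PEP45, 392 in pye-1 and 1966 in deficient wild type. The proton pump AHA2, at 1030 RPKM in SHR23 and 997 in PEP45, was nearly level. Of the 17, the authors' deposited tables list 12 as lower than deficient wild type in SHR23 and 15 in PEP45. IRT1 was listed in PEP45 (q = 0.000123) and not in SHR23, a difference in listing that was not itself tested.

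Regulators of the iron response were mostly a little higher in SHR23. Of 16 genes tested, 15 had positive differences, none was 2-fold higher and 1 was 2-fold lower, with a median of 0.30. The lower gene was BHLH11, at 2.09 RPKM in SHR23, against 7.15 in PEP45, 6.65 in pye-1, 0.587 in deficient wild type and 4.35 on iron. The subgroup Ib gene BHLH100 stood at 1510 RPKM in SHR23, against 906 in PEP45, 618 in pye-1 and 759 in deficient wild type. BHLH101 stood at 343 RPKM in SHR23 and 227 in PEP45, and the IRON MAN peptide gene AT2G30766 at 89.8 and 60.8. The IRON MAN genes AT1G47400 and AT1G47395 are near-identical, so reads may be split between them. Of the 16, the authors' deposited tables list 10 as higher in SHR23 and 5 in PEP45, and 1 as lower in each. In the authors' deposited tables all 4 subgroup Ib genes (BHLH38, BHLH39, BHLH100 and BHLH101) were listed as higher than deficient wild type in SHR23. None of them was listed in PEP45, although the mean of each was above deficient wild type there too. This difference in listing was not itself tested, and it does not show that the Ib genes were unchanged in PEP45.

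Genes that move iron inside the plant had a median difference of 0.41, with 14 of 16 tested, 10 positive and none 2-fold apart. ZIF1, a vacuolar transporter linked to nicotianamine and zinc, stood at 428 RPKM in SHR23, against 230.4 in PEP45, 194 in pye-1 and 191 in deficient wild type. OPT3, which acts in the phloem, stood at 1218 RPKM in SHR23 and 762 in PEP45. NAS1, a nicotianamine synthase, stood at 76.6 RPKM in SHR23, against 49.0 in PEP45 and 207 in deficient wild type, and the vacuolar metal exporter NRAMP4 at 517 in SHR23 and 340 in PEP45. NAS3, by contrast, stood at 27.7 RPKM in SHR23 and 29.9 in PEP45, and is listed at 0 in both wild-type groups. Of the 14, the authors' deposited tables list 9 as higher than deficient wild type in SHR23 and 7 in PEP45.

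**Figure D2:**
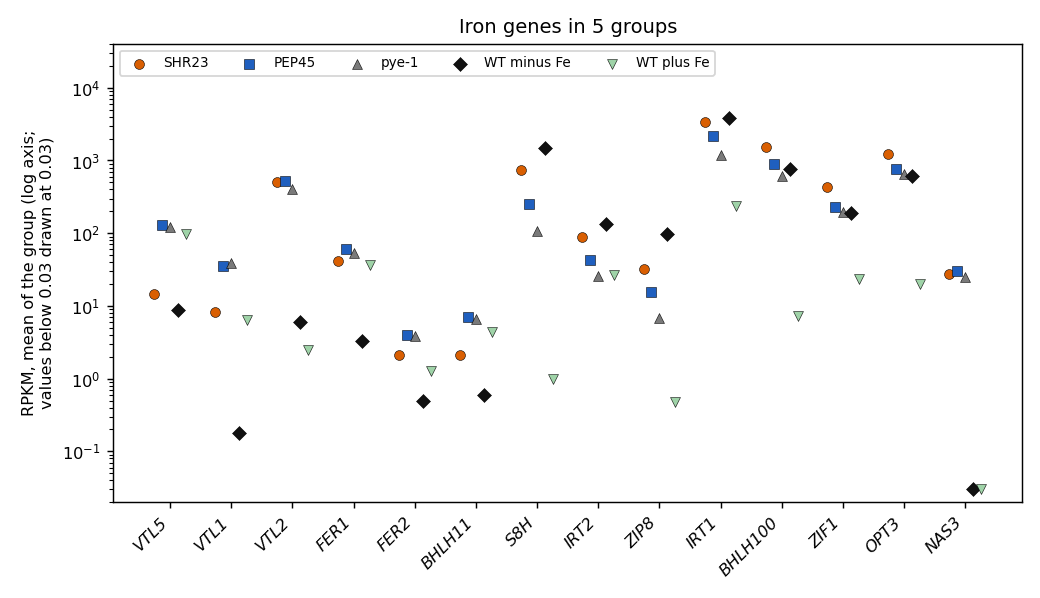
RPKM (vertical, log axis) of 14 iron genes in SHR23, PEP45, pye-1, deficient wild type and wild type on iron, 1 mean per group. VTL5, VTL1 and BHLH11 lie lower in SHR23 than in PEP45, which sits beside pye-1, while VTL2 and NAS3 are level between the lines. S8H, IRT2, ZIP8 and IRT1 lie highest in deficient wild type, followed by SHR23, PEP45 and pye-1.

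Genes of methionine-derived glucosinolates, sulfur-rich defence compounds of the cabbage family, were higher in SHR23. Of 13 genes 11 were tested, 9 were at least 2-fold higher and none lower, and the median was 1.75. BCAT4, which starts the chain elongation of methionine, stood at 86.6 RPKM in SHR23, against 9.19 in PEP45, 9.62 in pye-1, 24.8 in deficient wild type and 1.97 on iron. MAM1, which condenses the chain in the next step, stood at 55.9 RPKM in SHR23, against 8.74 in PEP45 and 20.3 in deficient wild type. The cytochrome P450 genes of the core pathway followed, CYP79F2 with 48.3 RPKM in SHR23 and 8.52 in PEP45 and CYP83A1 with 52.4 and 10.1. SHR23 was thus above and PEP45 below deficient wild type for these 4 genes. MAM1 and MAM3 are close paralogs, as are CYP79F1 and CYP79F2, so reads may be shared. MYB28, an activator of the pathway, stood at 15 RPKM in SHR23, against 7.95 in PEP45 and 15.2 in deficient wild type, and MYB29 was near 0 in both lines. As higher than deficient wild type the authors' deposited tables list 9 of the 11 in SHR23, and as lower 7 in PEP45. AK3, an aspartate kinase outside the list, stood at 16.5 RPKM in SHR23 and 1.96 in PEP45.

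The 5 root triterpene genes, which make thalianol, marneral and their derivatives, were all higher in SHR23, 4 of them at least 2-fold, with a median of 1.98. THAS (AT5G48010), the thalianol synthase, stood at 51.4 RPKM in SHR23, against 7.64 in PEP45, 12.6 in pye-1, 30.3 in deficient wild type and 72.5 on iron. Its neighbours THAD (AT5G47990) and THAH (AT5G48000), P450 enzymes of the same gene cluster, stood at 108 and 71.5 RPKM in SHR23 and 21.7 and 17.8 in PEP45. MRO, the marneral oxidase, stood at 12.9 RPKM in SHR23 and 5.42 in PEP45. Further genes beside thalianol synthase, chosen after their values were seen, were AT5G47950 with 43.2 RPKM in SHR23 and 16.3 in PEP45 and AT5G47980 with 6.70 and 2.15. All 5 list genes were listed as lower than deficient wild type in PEP45 in the authors' deposited tables, against 1 (MRN1) in SHR23.

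Jasmonate genes were higher in SHR23, with 12 of 15 tested, 5 at least 2-fold higher, none lower and a median of 0.89. JAZ1, a repressor of jasmonate signalling that is itself induced by the hormone, stood at 111 RPKM in SHR23, against 34.5 in PEP45, 44.6 in pye-1 and 54.2 in deficient wild type. JAZ8 stood at 7.27 RPKM in SHR23 and 1.97 in PEP45, JAZ3 at 44.8 and 17.1, and JAZ2 at 39 and 14.9. JAZ7 was the tested gene with a negative difference, at 0.980 RPKM in SHR23 and 1.20 in PEP45. Of the 12, the authors' deposited tables list 8 as higher than deficient wild type in SHR23 and 1 in PEP45, where they list 3 as lower. MYC2, the transcription factor that JAZ proteins bind, was looked up after the list had been seen and stood at 55.4 RPKM in SHR23 and 24.6 in PEP45.

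Photosynthesis genes were lower in SHR23. Of 20 genes 19 were tested, all 19 were at least 2-fold lower and the median was -2.53. The summed RPKM of the list was 55.9 in SHR23, against 459 in PEP45, 116 in pye-1, 409 in deficient wild type and 424 on iron, and 28.4 to 148 in WER65, WER13 and PPL. LHCB1.3, a light-harvesting chlorophyll-binding protein of photosystem II, stood at 5.16 RPKM in SHR23, against 136 in PEP45, 18.7 in pye-1 and 108 in deficient wild type. LHCB3 stood at 0.308 RPKM in SHR23 and 9.96 in PEP45, LHCB5 at 1.35 and 19.9, and LHCA4, of the photosystem I antenna, at 2.92 and 36.6. CAB3 (AT1G29910) stood at 0.287 RPKM in SHR23 and 45.6 in PEP45, and LHCB1.1 (AT1G29920) at 0.148 and 23.2, though the LHCB1 copies and the RBCS copies are near-identical and reads may be split among them. PEP45 was therefore near both wild-type groups and SHR23 was below pye-1 on this list. LHCB4.1 and LHCA4 were listed as lower than deficient wild type in SHR23 in the authors' deposited table, 2 of the 19, and none of the 19 was listed in PEP45. Genes of the plastid genome were lower too, with 35 of 68 tested genes at least 2-fold lower, none higher and a median of -1.06. Over all tested genes 1.60% were lower. Photosynthesis-described or plastid-encoded genes made up 76 of the 301 lower genes. Among all 18866 tested genes 84 were photosynthesis-described and 68 plastid-encoded, and some were both. The libraries were poly(A)-selected, and how fully they hold plastid transcripts was not tested. These genes are markers of green tissue in a root sample, and the part played by such tissue, by greening of the roots or by 1 library was not tested.

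**Figure D3:**
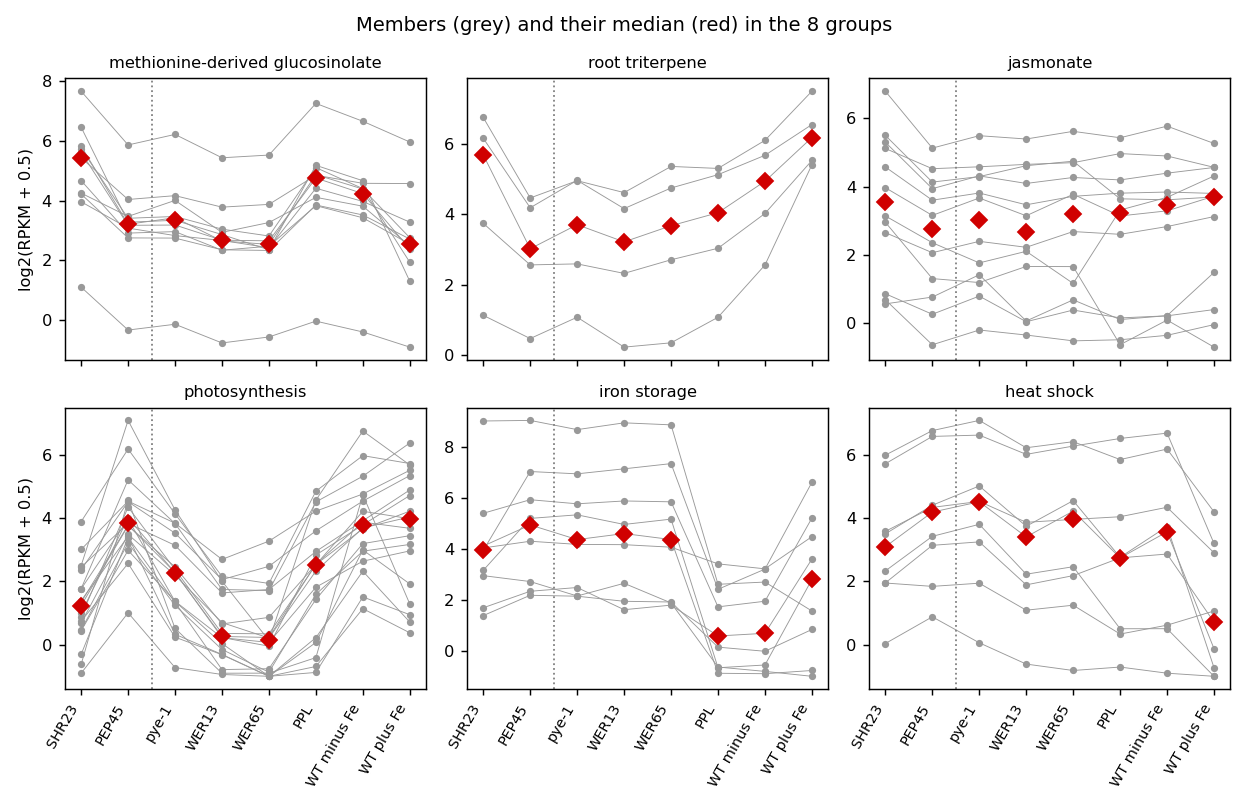
log2(RPKM + 0.5) of the tested members of 6 lists (grey points, lines joining the values of 1 gene) and their median (red diamonds) in the 8 groups, 1 mean per group. Glucosinolate, triterpene and jasmonate genes are higher in SHR23 than in PEP45, and photosynthesis, iron storage and heat shock genes lower. Photosynthesis genes in PEP45 sit near both wild-type groups, while iron storage genes in both lines sit well above deficient wild type.

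Clock genes of the morning list were mostly higher in SHR23 and those of the later list mostly lower. There were exceptions on both sides, the difference between the lists was not tested, and times of peak expression were not measured here. Morning-expressed genes had a median of 0.68, with all 8 tested, 6 positive and 2 at least 2-fold higher in SHR23. The negative ones were RVE6 (-0.08 on the log2 scale) and LNK1 (-0.28). LHY, a core morning repressor, stood at 1.85 RPKM in SHR23, against 0.346 in PEP45, 0.488 in pye-1 and 0.336 in deficient wild type. RVE8 stood at 9.68 RPKM in SHR23, against 3.50 in PEP45 and 2.15 in deficient wild type. CCA1 stood at 1.5 RPKM in SHR23 and 0.715 in PEP45, and LNK2 at 3.93 and 1.87. Of the 11 genes of the later clock list, 3 were at least 2-fold lower in SHR23 and none higher. Negative differences were held by 8 of the 11, and the median was -0.24. The positive ones were ELF3 (0.09 on the log2 scale), ELF4 (0.24) and BOA (0.44). PRR7 stood at 4.25 RPKM in SHR23, against 14.1 in PEP45, 17.595 in pye-1, 21.5 in deficient wild type and 45 on iron. FKF1, a blue-light receptor with the evening elements printed above, stood at 4.17 RPKM in SHR23 and 9.58 in PEP45, and GI, its partner, at 5.48 and 11.7. PRR3 stood at 8.92 RPKM in SHR23 and 13.3 in PEP45. As higher than deficient wild type the authors' deposited tables list 4 morning genes in SHR23 and 1 in PEP45, and as lower 5 later genes in SHR23 and 3 in PEP45. WER13 and WER65 had LHY at 2.65 and 2.17 RPKM and PRR7 at 5.91 and 6.33, near SHR23. The hour at which each line was harvested is not given in the sources used here.

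AT3G01345 had the largest difference of all tested genes, with 81.8 RPKM in SHR23, 0.0378 in PEP45 and at most 0.154 in each of the other groups. It is annotated as a protein-coding gene for an uncharacterized protein on chromosome 3 (TAIR10.1, 129138 to 130749). The adjacent genes AT3G01340 and AT3G01350, looked up after that value was seen, stood at 66.5 and 42.5 RPKM in SHR23 and 60.05 and 26.3 in PEP45. In the authors' deposited table AT3G01345 was listed as higher than deficient wild type in SHR23 (q = 1.09e-05). AT3G01350, at 20.8 RPKM in deficient wild type, was also listed as higher in SHR23 (q = 2.34e-06), and AT3G01340 was not listed. Neither AT3G01345 nor AT3G01350 was listed in PEP45. The table does not show whether the signal of AT3G01345 belongs to 1 library or to all 3.

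The other genes of largest difference lay outside the iron gene lists, although some, such as MSRB6, differed between wild type with and without iron. AT4G22610, of the lipid-transfer protein family, stood at 45.6 RPKM in SHR23, against 3.63 in PEP45 and 10.4 in deficient wild type. AT1G49570, of the peroxidase family, stood at 33.4 RPKM in SHR23, against 2.82 in PEP45 and 11.4 in deficient wild type. MSRB6, a methionine sulfoxide reductase, stood at 17.3 RPKM in SHR23, against 2.24 in PEP45, 2.26 in pye-1, 1.59 in deficient wild type and 21.3 on iron. CYP71A20 stood at 34.4 RPKM in SHR23 and 5.11 in PEP45, and the pseudogene AT3G29252 at 5.21 and 0.313. On the lower side all 10 genes of largest difference encode proteins of the chloroplast, among them LHB1B2, LHB1B1 and PSAO with 2.0, 0.685 and 1.05 RPKM in SHR23 and 65.7, 26.3 and 19.9 in PEP45, and OEP6, of the plastid envelope, with 0.629 and 12.6.

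Some genes were listed on opposite sides of deficient wild type. The authors' deposited tables have 27 genes listed as higher in SHR23 and lower in PEP45, and 4 as lower in SHR23 and higher in PEP45. The 27 included BCAT4, MAM1, MAM3, CYP79F2, CYP83A1 and BAT5 of the glucosinolate list together with JAZ1, AT4G22610, AT1G49570 and AK3. All 27 were at least 2-fold higher in SHR23 than in PEP45. The direction follows from how they were chosen, on opposite sides of the same control, and is not a separate result. The 4 were PNP-A, a natriuretic-like peptide gene, with 0.900 RPKM in SHR23, 6.45 in PEP45 and 1.72 in deficient wild type, the pseudogene AT4G21730 with 11.1, 38.6 and 17.8, AT1G71140, of the MATE transporter family, with 4.05, 14 and 7.88, and RLP7, a receptor-like protein gene, with 0.848, 2.47 and 1.45.

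No gene of the low-oxygen list or of the root hair, epidermal, Casparian strip, suberin, vascular and cell division lists was 2-fold apart. The 15 low-oxygen genes had a median of -0.02, SUS1, a sucrose synthase, standing at 84.7 RPKM in SHR23 and 115 in PEP45, although the authors' deposited tables list all 15 as higher than deficient wild type in both lines. Root hair genes had a median of -0.02 with 15 of 17 tested and none 2-fold apart, and the authors' deposited tables list 10 of those as lower in SHR23 and 10 in PEP45. Epidermal fate genes (8 of 9 tested, median 0.03), Casparian strip genes (10 of 11, median 0.20), phloem genes (8 of 9, median 0.22), cell division genes (15 of 16, median 0.20), phosphate starvation genes (9 of 13, median -0.04) and zinc and copper genes (all 17, median 0.10) had none 2-fold apart. The 15 cell division genes all had positive differences and the 17 tested xylem genes all had negative ones, with a xylem median of -0.33 and CTL2, a chitinase-like protein of the secondary wall, at 22.7 RPKM in SHR23 and 34.3 in PEP45. Suberin genes had a median of -0.31, with 16 of 19 negative and none 2-fold apart, LACS2, an acyl-CoA synthetase, standing at 33.7 RPKM in SHR23 and 51.6 in PEP45. Of the 19, the authors' deposited tables list 4 as higher than deficient wild type in SHR23 and 12 in PEP45.

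In the nitrate, sulfate, aquaporin and indole lists 1 or 2 genes were at least 2-fold apart. NRT2.1, a high-affinity nitrate transporter, stood at 4.43 RPKM in SHR23, against 13.2 in PEP45, 50.4 in pye-1 and 0.724 in deficient wild type, and was the 1 nitrate gene of 12 tested at least 2-fold lower (list median -0.24). APR1, a reductase of sulfate assimilation, stood at 72.6 RPKM in SHR23, against 22.7 in PEP45 and 77.9 in deficient wild type, and was the 1 sulfate gene of 7 tested at least 2-fold higher (list median 0.42). Of 11 aquaporins, TIP2;3 of the vacuolar membrane was 2-fold lower, at 8.58 RPKM in SHR23, against 24.4 in PEP45 and 113 in deficient wild type, and the list median was 0.40. Of 8 indole defence genes, CYP79B2 and CYP79B3, which convert tryptophan to an oxime, were 2-fold higher, at 90.08 and 107 RPKM in SHR23 and 42.2 and 49.0 in PEP45, while MYB51, an activator of indole glucosinolates, stood at 6.70 and 13.6 (list median 0.38).

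Of the heat shock genes 8 of 9 were lower in SHR23, with a median of -0.86, 3 at least 2-fold lower and none higher, HSFA2, a heat stress transcription factor, standing at 3.38 RPKM in SHR23, against 8.33 in PEP45 and 6.80 in deficient wild type. Of the 9, the authors' deposited tables list 3 as lower than deficient wild type in SHR23 and 6 as higher in PEP45.

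**Figure D4:**
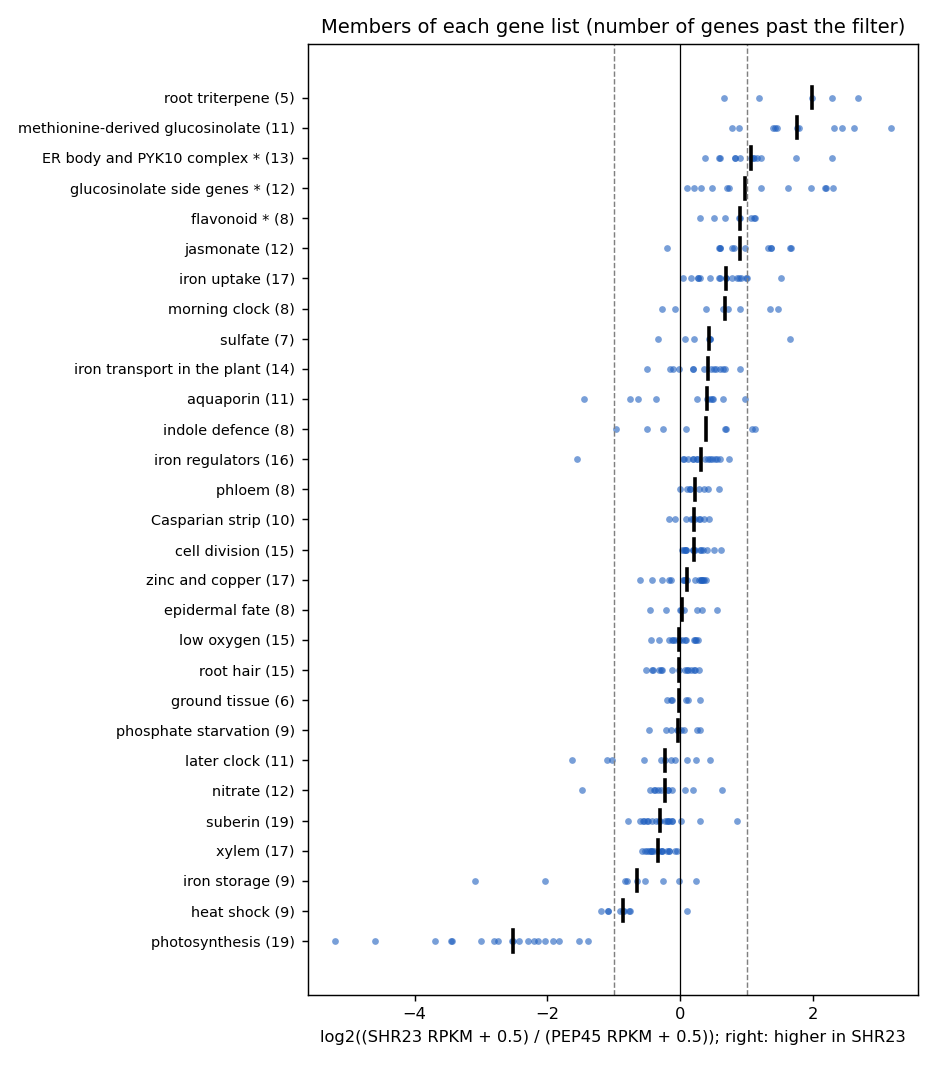
Difference of SHR23 over PEP45 on log2(RPKM + 0.5) for each tested member (points) of 29 gene lists, with the list median (black bar), zero (solid line) and 2-fold differences (dashed lines). Lists marked with an asterisk were added later, and the others too were chosen with earlier results of these data known. Root triterpene and glucosinolate lists lie furthest to the right (medians 1.98 and 1.75) and photosynthesis furthest to the left (-2.53).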

How the data were processed

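RNA of roots was sequenced from poly(A)-selected, directional libraries, per the labels' protocols. Per the submitters' processing notes the build was TAIR10 and FastQC, TopHat2 and edgeR were used; versions, the counting step and its strand setting and gene lengths are not stated in these sources. The authors deposited RPKM values as 1 mean per group of 3 samples, so no SD, interval, n or test could be computed between SHR23 and PEP45, and the number of reads limits low values most. The authors also deposited tables of q-values against deficient wild type, all under 0.05, and the test behind them is not stated.

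A gene was kept where SHR23 or PEP45 reached an RPKM of 1, the pseudocount on the log2 scale was 0.5, and 2-fold was the limit for a count. On this scale the change of low genes is understated. Plain ratios of RPKM are given as folds. A check of the code recovered large changes planted with little noise in well-expressed genes. That setting is easier than the real data, so the check does not measure how reliable the 2-fold counts are. Of the gene identifiers 97.7% matched TAIR10.1, the source of symbols and promoters. Symbols of VTL, IRON MAN and S8H genes are textbook names beside their locus numbers. The 26 gene lists (334 entries), the lines compared and the tests were chosen with earlier results of these data known, and 3 further lists were added later. Named were PYE, the 10 largest differences each way at an RPKM of at least 2, up to 4 members per list of largest difference, the promoter genes and the genes listed in opposite directions. IRT1, FRO2, AHA2, FER1, VTL2, NAS3, CYP79F1, JAZ7, MYB28, MYB29, LHCB4.1, MRN1, AT1G62500, RVE6, LNK1, ELF3, ELF4, BOA, the IRON MAN pair, BHLH38 and BHLH39 lie outside that rule, as do genes said to be looked up later. Alternatives were other pseudocounts, filters, folds and centring. Python 3.11 and pandas were used.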

Additional observations from a re-analysis of the deposited data

How the results depend on the processing

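The count of genes at least 2-fold apart depended on its limits. It was 533 (232 higher and 301 lower in SHR23), against 1541 at 1.5-fold (669 higher, 872 lower), 181 at 3-fold (77 higher, 104 lower), 319 with an RPKM of at least 5 (152 lower) and 328 among genes in either of the authors' deposited tables (139 lower). Without photosynthesis-described and plastid genes, an alternative chosen after seeing the data, 225 genes were lower and 232 higher. Centring removed a shift of 0.0085 on the log2 scale. The 145 recomputed list medians stayed within 1.5-fold of their values, and the sign changed in 2 medians close to 0, with an RPKM of at least 5: epidermal fate (-0.0024) and root hair (0.11). Among single genes, AT3G01345 had a difference of 9.21 with a pseudocount of 0.1 and 6.32 with 1, and LHY of 2.13 with 0.1. Leaving out replicates was not run, because the table holds 1 mean per group. No paired analysis was possible because the lines share no replicate number, SHR23 being numbered 4 to 6 and PEP45 1 to 3, and the values are means.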

Other observations

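Groups added after the data were seen also differed between the lines. Genes of the ER body, a compartment of root cells that stores beta-glucosidases, and of the PYK10 complex were higher in SHR23, with 13 of 14 tested, 7 at least 2-fold higher, none lower and a median of 1.07. PYK10, the main beta-glucosidase of the ER body, stood at 6415 RPKM in SHR23, against 3448 in PEP45, 4059 in pye-1, 5025 in deficient wild type and 9107 on iron. BGLU22 stood at 404 RPKM in SHR23, against 82.3 in PEP45 and 302 in deficient wild type. The lectin gene JAL33 stood at 585 RPKM in SHR23 and 175 in PEP45, and the lectin PBP1 at 1589 and 682. NAI1, the bHLH regulator of ER body genes, stood at 54.2 RPKM in SHR23 and 24.8 in PEP45. Of the 13, the authors' deposited tables list 2 as lower than deficient wild type in SHR23 and 9 in PEP45. NSP1, next to these lectin genes, stood at 317 RPKM in SHR23 and 108 in PEP45.

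Further glucosinolate genes had a median of 0.98, with 12 of 13 tested and 6 at least 2-fold higher in SHR23. IMD1, an isopropylmalate dehydrogenase of methionine chain elongation, stood at 117 RPKM in SHR23 and 25.4 in PEP45, and IPMI1 at 46.7 and 9.84. Flavonoid genes had a median of 0.89, with 8 of 11 tested and 3 at least 2-fold higher. MYB12, their activator, stood at 69.4 RPKM in SHR23, against 37.1 in PEP45, 25.7 in pye-1 and 7.48 in deficient wild type. All 8 tested flavonoid genes were listed as higher than deficient wild type in both lines in the authors' deposited tables.

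Single genes outside the lists are given as values. UMAMIT29, of an amino acid transporter family, stood at 2.51 RPKM in SHR23, against 21.3 in PEP45 and 2.08 in deficient wild type. PDF2.1, of the defensin family, stood at 30.1 RPKM in SHR23 and 141 in PEP45. Within a cluster of related genes on chromosome 4, AZI1 and EARLI1 stood at 14.1 and 29.5 RPKM in SHR23 and 54.0 and 96.6 in PEP45, while AIR1 stood at 307 and 89.9. MT2A, a metallothionein, stood at 112 RPKM in SHR23, against 288 in PEP45 and 331 in deficient wild type. RVE2, a relative of the morning clock genes, stood at 229 RPKM in SHR23, against 96.1 in PEP45 and 81.7 in deficient wild type. TPS13, a terpene synthase next to CYP71A20, stood at 14.4 RPKM in SHR23 and 2.31 in PEP45.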
